A study of Rattus norvegicus with 105 samples.

Results

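Pdk4 encodes pyruvate dehydrogenase kinase 4, 1 of the 4 kinases that switch off the pyruvate dehydrogenase complex. It was followed in primary rat hepatocytes through the probe whose identifier carries that symbol, Pdk4_41021. That was 1 probe of 22253 in the count table, and 1 gene symbol of 20946. The gene was chosen by its levels and changes in these same libraries, which earlier results had shown to be large, so its own levels and changes are given as a description, with a standard error but without a test. Tests are reported only for other genes.

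The study exposed cells of 1 commercial lot, from female Sprague-Dawley rats, for 24 h and read their RNA with TempO-Seq, in which pairs of detector oligonucleotides are ligated on a target RNA, amplified and counted. The tested compounds were 3 nitroalkanes: nitromethane (NM), nitroethane (NE), which is longer by a methylene group, and 1-nitropropane (1NP), which is longer again by the same step. Each was given at 8 concentrations between 0.003 and 10 mM; the unit mM is that of the protocol, whereas the sample titles write the same numbers as µM, so the dose scale carries that doubt throughout. The libraries made up 35 groups of 3, with 72 libraries in set 1 and 33 in set 2.

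Set 1 held NM and NE at the 8 concentrations, the reference compounds WY-14643 (an activator of the fatty acid receptor PPARα, 50 µM), CITCO (an activator of human CAR with lower potency on the rat receptor, 10 and 20 µM), benzo[a]pyrene (an activator of the aryl hydrocarbon receptor, 50 µM) and rifampin (20 and 40 µM), DMSO vehicle, and medium. Set 2 held 1NP at the 8 concentrations, WY-14643, DMSO and medium. WY-14643 of set 2 is 50 µM in the sample titles and 100 µM in the library names, so its concentration is uncertain. That of DMSO is uncertain too, at 0.2% in the protocol, 0.5 µM in the sample titles and 0.5 without a unit in the library names. All cells were kept in medium with serum and an insulin, transferrin and selenium supplement, and all groups came from the same lot, so p-values measure the spread between wells of that lot and not between animals. Within a compound each concentration had a plate row of its own, DMSO lay in row B and medium in row A. Within a compound, concentration and plate row therefore cannot be told apart, nor can vehicle and row from the 2 controls alone. Rows were shared across compounds: in set 1, row B also held NM and NE at 0.01 mM, and row H held both at 10 mM. Whether vehicle was added along with the nitroalkanes is not given in the labels, and for this reason both controls are used throughout.

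The pyruvate dehydrogenase complex turns pyruvate into acetyl-CoA and so commits glucose carbon to oxidation. Its kinases phosphorylate and inhibit it, and its phosphatases (Pdp1, Pdp2) release it again. Of the kinases, Pdk4 is the one best known for responding to nutritional state. In liver it is raised by fasting, by fatty acids acting through PPARα, by glucocorticoids and by FoxO1, and insulin lowers it, so that in the fasted state pyruvate is kept for gluconeogenesis while fat is burned.

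The gene lies at chr4:34558327-34568329 on the minus strand of the rat assembly GRCr8. Its 250 bases upstream of the transcription start, from RefSeq, are shown because motifs of the factors known to act on Pdk4 were looked for there. The stretch chr4:34568330-34568579 is printed 5′ to 3′ on the strand of the gene. Capitals mark the 2 motifs found, CCAAT (read here as its reverse complement) and the Sp1 box GGGCGG.
Pdk4 promoter: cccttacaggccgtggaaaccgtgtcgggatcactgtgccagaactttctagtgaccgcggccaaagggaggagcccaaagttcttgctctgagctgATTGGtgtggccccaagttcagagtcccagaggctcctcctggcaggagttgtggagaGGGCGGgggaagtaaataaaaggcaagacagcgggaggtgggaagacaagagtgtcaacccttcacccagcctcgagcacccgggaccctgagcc
Motifs were searched on both strands in this window and in the same window of 33469 rat promoters. The CCAAT match began 153 bases and the GGGCGG match 95 bases before the start; they were present in 34.0% and 30.5% of all promoters. No match was found to the nuclear receptor half-site AGGTCA (in 14.1% of all promoters), to the estrogen-related receptor element TCAAGGTCA (0.388%), to the direct repeat 1 element bound by PPARα with its partner RXR (0.0508%), to the FoxO site GTAAACA (3.21%), to the glucocorticoid receptor half-site AGAACA (17.5%) or to TATAAA (12.9%). The half-site AGGTCA is contained in the direct repeat and in the estrogen-related receptor element. These letters are absent from this window only, and sites elsewhere in the gene were not searched.

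Library totals ran from 5475419 to 11122665 counts (median 8680678), and 3 counts, taken as the floor, were worth 0.270 to 0.548 CPM, which is a probe's count scaled to a common library total. Pdk4 had 6 to 796 counts a library, with a median of 34. The cells carried the labelled identity: the summed level of the 9 hepatocyte markers found in the table, of 10 listed, was 6439 to 15957 CPM. Endothelial markers summed to 0 to 8.52 CPM, and all 6 had a median count of 0. Stellate markers reached at most 18.1 CPM and Kupffer markers at most 18.0 CPM; Col1a1, Col3a1, Dcn, Des and Pdgfrb, and Adgre1, Clec4f and Marco, had a median of 0. Cholangiocyte markers were present in every library, at 224 to 1221 CPM in sum. In bulk RNA, fewer cells of a type and less RNA per cell cannot be told apart.

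Several libraries stood apart from their labels. Over the 7618 probes with a mean of at least 10 CPM, each library was correlated with the mean profile of every group, after centring each set. The library labelled 1NP 10 mM replicate 3 had r = 0.898 with NE 10 mM and −0.251 with the other libraries of its own group, whereas 1NP 10 mM replicates 1 and 2 had r = −0.216 and −0.0888 with NE 10 mM. The library labelled 1NP 3 mM replicate 3 was closest to NE 3 mM (r = 0.813) and that labelled 1NP 1 mM replicate 3 to NE 10 mM (r = 0.579). All 1NP replicate 3 libraries lay in plate column 3 of set 2. In set 1, the libraries labelled NM 10 mM replicate 3 and NM 3 mM replicate 1 were closest to the mean of NM 1 mM (r = 0.828 and 0.766). NM 1 mM replicate 1 was closest to NM 10 mM (r = 0.737). NE 1 mM replicate 3 and NE 0.3 mM replicate 3 were also closest to NM 1 mM (r = 0.724 and 0.737). Medium replicate 6 of set 2 was closest to NM 10 mM (r = 0.650). These NM means themselves contain libraries that stood apart, NM 1 mM replicate 1 and NM 10 mM replicate 3. NM 1 mM replicates 2 and 3 had r = −0.137 and −0.125 with the rest of their group. A likeness to NM as a treatment is not shown by these values. NE 0.01 mM replicate 3 was close to no group, its highest r being 0.129, with NE 0.003 mM. NE 10 mM replicate 2 had counts for 21627 probes, against a median of 13792 over all libraries. Values without these libraries are given beside the Pdk4 results that rest on them.

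The main pattern of Pdk4 was simple. It was highest with the PPARα activator, next highest with NE at 10 mM, and within a few CPM of the controls nearly everywhere else. The lowest levels were with NM at 10 mM in set 1, and in some 1NP and medium libraries of set 2. The 2 controls were not alike, so the sign of the smaller differences depended on the control.

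WY-14643 gave the highest levels of Pdk4 in both sets. In set 1 Pdk4 was at 83.3, 99.1 and 51.9 CPM with WY-14643, against 7.46, 6.45 and 6.80 CPM with DMSO and 3.71, 3.01 and 3.42 CPM in medium. In set 2 it was at 38.4, 34.5 and 34.7 CPM with WY-14643, against 5.74, 7.27 and 5.78 CPM with DMSO and 5.20, 0.796 and 1.02 CPM in medium. Every WY-14643 library was above every control library of its set, which held for 17.9% of all probes tested against DMSO and 15.1% against medium in set 1, and for 10.3% and 12% in set 2. The change in set 1 was 3.37 ± 0.25 on the log2 scale against DMSO (SE, n = 3 each), a 10.4-fold difference, and 4.44 ± 0.28 against medium, a 21.7-fold difference. In set 2 it was 2.49 ± 0.36 against DMSO (5.62-fold) and 3.98 ± 0.41 against medium. Without medium replicate 4 of set 2, the medium library there that was not near 1 CPM, the last value was 5.36, and without medium replicate 6 it was 3.71.

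**Figure D1:**
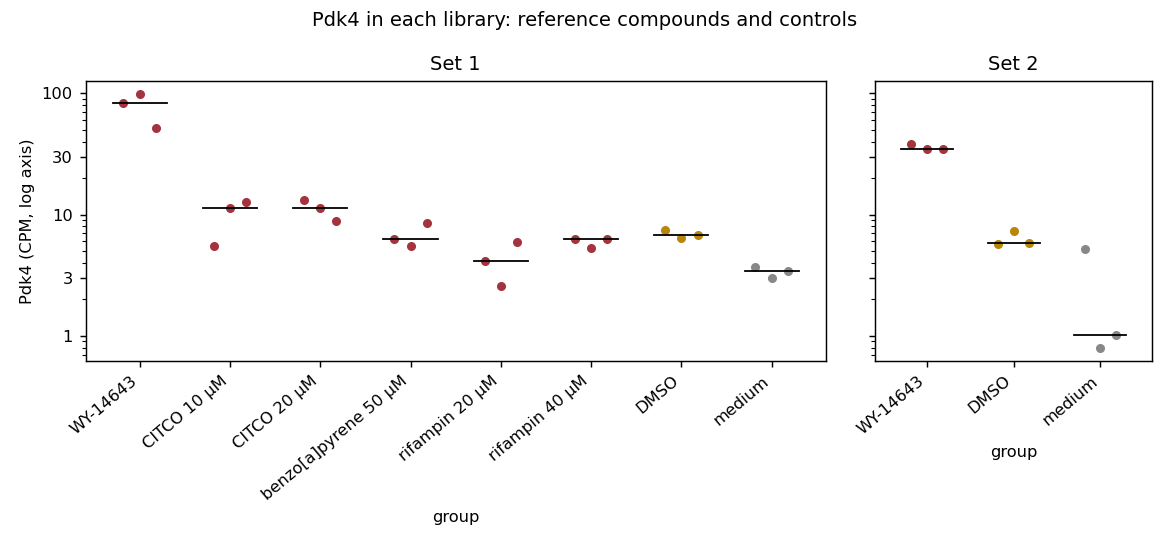
Pdk4 in CPM (log axis) in each library of the reference compounds and controls, set 1 on the left and set 2 on the right; points are libraries and bars are medians of 3. WY-14643 stands at 51.9 to 99.1 CPM in set 1 and 34.5 to 38.4 CPM in set 2, above all libraries of the other groups shown, and DMSO lies above medium.

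The other reference compounds stayed close to DMSO. CITCO at 20 µM gave 13.1, 11.4 and 8.89 CPM, all above the DMSO libraries (8.87% of probes were higher without overlap in that comparison), with a log2 change of 0.66 ± 0.26. At 10 µM the levels were 5.51, 11.3 and 12.7 CPM and overlapped DMSO (0.47 ± 0.27). Benzo[a]pyrene gave 6.24, 5.47 and 8.52 CPM, which also overlapped DMSO (−0.10 ± 0.27). Rifampin at 20 µM gave 4.14, 2.59 and 5.93 CPM, below DMSO (−0.76 ± 0.29) and overlapping medium (0.31 ± 0.32), and at 40 µM it gave 6.31, 5.26 and 6.31 CPM, just below the lowest DMSO library (−0.30 ± 0.28). Lower without overlap of DMSO were 7.79% of probes at 20 µM and 5.4% at 40 µM. Against medium, 8 of the 9 comparisons of a reference compound or DMSO were higher without overlap. The share of all probes higher in this way was 17% with benzo[a]pyrene, 10.5% with CITCO at 10 µM, 14% with CITCO at 20 µM and 13.2% with rifampin at 40 µM.

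The vehicle itself went with a higher level. DMSO was above medium in set 1 by 1.07 ± 0.30 and in set 2 by 1.49 ± 0.44 on the log2 scale, with no overlap of libraries in either set (10.2% of probes were higher in this way in set 1 and 14.9% in set 2). The set 2 difference was 2.86 without medium replicate 4, 1.04 without medium replicate 5 and 1.22 without medium replicate 6. Hepatocyte markers went the same way in set 1, summing to 14716 to 15957 CPM with DMSO and 8718 to 10889 CPM in medium. Their part in the difference of Pdk4 was not tested. Row B, where DMSO lay, also held NM and NE at 0.01 mM in set 1, with means of 3.20 and 3.05 CPM. In set 2 it held 1NP at 0.01 mM, with a mean of 4.74 CPM. The part of plate row was not tested either.

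Among the nitroalkanes, only the libraries of NE at 10 mM and 1 library labelled 1NP 10 mM exceeded 7 CPM. NE at 10 mM gave 22.7, 43.8 and 47.7 CPM, well clear of DMSO and of medium. The log2 change was 2.39 ± 0.24 against DMSO, a 5.24-fold difference, and 3.47 ± 0.26 against medium, an 11.1-fold difference. In both comparisons 23.7% of all probes were higher without overlap. The change against DMSO lay between 2.13 and 2.61 when 1 library was left out at a time, and was 2.38 without NE 10 mM replicate 2, the library with the most probes detected.

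At lower concentrations of NE the level of Pdk4 hardly moved. NE at 3 mM gave 5.17, 4.17 and 4.65 CPM and NE at 1 mM gave 4.61, 4.42 and 4.13 CPM. These libraries were all above medium, with log2 changes of 0.54 ± 0.27 at 3 mM and 0.34 ± 0.27 at 1 mM, and all below DMSO, with −0.54 ± 0.26 and −0.73 ± 0.25. Lack of overlap was common in these comparisons: 13% and 11.5% of probes were higher than medium in this way, and 14.9% and 9.04% lower than DMSO. Without NE 1 mM replicate 3 the change at 1 mM was −0.64 against DMSO and 0.42 against medium, and without NE 0.3 mM replicate 3 that at 0.3 mM was −1.15 and −0.09. The 15 libraries at 0.003 to 0.3 mM had 1.83 to 4.50 CPM, with a median of 3.41 CPM, and overlapped medium at each of the 5 concentrations (log2 changes of −0.05 to 0.10). Against DMSO the same groups were at −1.13 to −0.98, without overlap. The share of probes lower in this way was 9.04% at 0.003 mM, 10.3% at 0.01 mM, 12.7% at 0.03 mM, 12.3% at 0.1 mM and 9.53% at 0.3 mM. The lowest of these libraries, at 1.83 CPM, was NE 0.01 mM replicate 3. With any 1 library left out, the change at 0.01 mM ran from −0.24 to 0.13 against medium and from −1.32 to −0.95 against DMSO. The level in 10 mM NE stood apart from 7 concentrations that differed from each other by less than the gap between the controls.

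**Figure D2:**
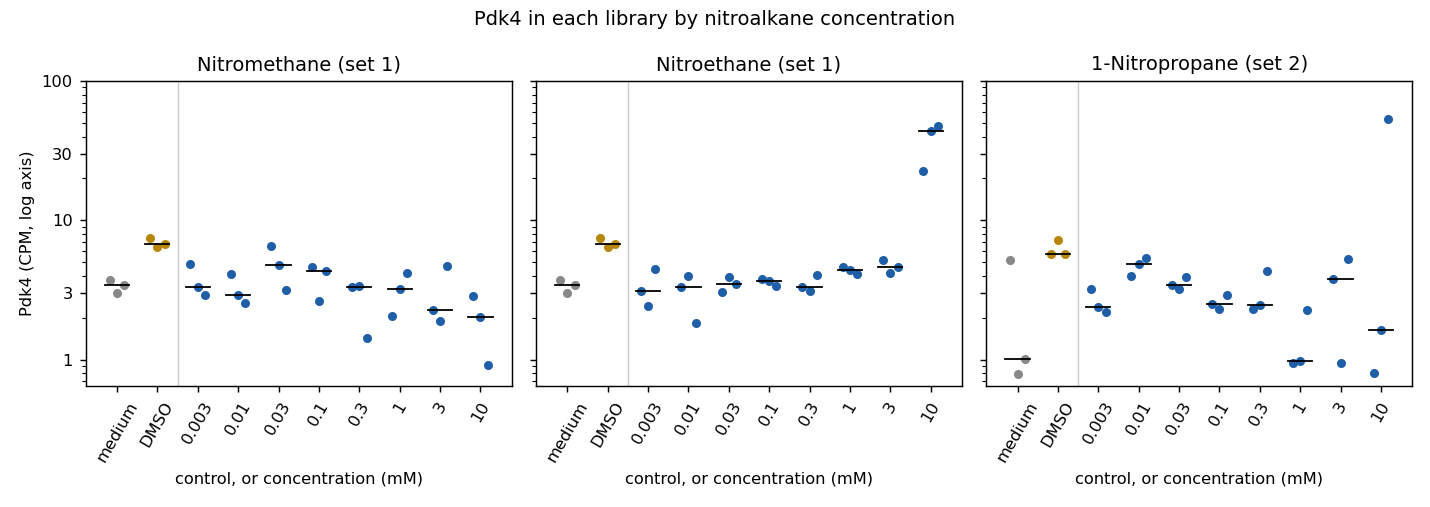
Pdk4 in CPM (log axis) in each library by concentration of nitromethane, nitroethane and 1-nitropropane, with medium and DMSO of the same set at the left; points are libraries and bars are medians of 3. NE at 10 mM lies at 22.7 to 47.7 CPM above both controls, NM at 10 mM at 0.911 to 2.88 CPM below both, and the libraries labelled 1NP 10 mM split into 0.810, 1.63 and 53.5 CPM.

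At no concentration did NM stand above a control without overlap. At 10 mM it gave 2.88, 2.01 and 0.911 CPM, below every DMSO and every medium library, with log2 changes of −1.90 ± 0.43 and −0.82 ± 0.45 (9.04% and 8.98% of probes were lower without overlap). The lowest value came from replicate 3, with 7 counts; without that library the changes were −1.55 and −0.48. NM at 3 mM gave 2.26, 1.89 and 4.71 CPM and at 1 mM 2.08, 3.22 and 4.19 CPM, overlapping medium in both cases (−0.18 ± 0.43 and −0.13 ± 0.43). Without replicate 1, the library that stood apart at each of these concentrations, the changes against medium were −0.01 and 0.13. The 15 libraries at 0.003 to 0.3 mM spread over 1.44 to 6.50 CPM around a median of 3.32 CPM. Against DMSO, 7 of the 8 concentrations were lower without overlap, the exception being 0.03 mM. The share of all probes lower in this way was 11.2% at 0.003 mM, 9.64% at 0.01 mM, 8.16% at 0.1 mM, 10.2% at 0.3 mM, 7.22% at 1 mM and 7.81% at 3 mM.

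NE and NM could be compared directly, since both were in set 1 at the same concentrations in the same plate rows. All NM libraries lay in plate columns 4 to 6 and all NE libraries in columns 7 to 9, so compound and column cannot be told apart. At 10 mM Pdk4 was 19.8-fold higher with NE, a log2 difference of 4.30 ± 0.47, and no libraries overlapped (16.9% of probes were higher in this way). Without NM 10 mM replicate 3 the difference was 3.96. As a description of precision and not a test, approximate 95% intervals are given at lower concentrations. At 3 mM the difference was 0.71 ± 0.44 (−0.15 to 1.58), at 1 mM 0.47 ± 0.35 (−0.22 to 1.16) and at 0.3 mM 0.30 ± 0.38 (−0.45 to 1.05), with overlap each time. The upper ends at 0.003 to 0.1 mM reached at most 0.66, and the lower ends went down to −1.06, at 0.03 mM. Without NM 3 mM replicate 1 the difference at 3 mM was 0.55, and it lay between 0.47 and 1.24 with any 1 library left out. At 1 mM it was 0.22 without NM replicate 1 and 0.55 without NE replicate 3, and at 0.3 mM 0.21 without NE replicate 3. Over these 8 matched concentrations, 1 pair was without overlap. The comparison at 10 mM was made with the levels known, and no comparison of 1NP with either compound was made, because 1NP was in the other set.

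**Figure D3:**
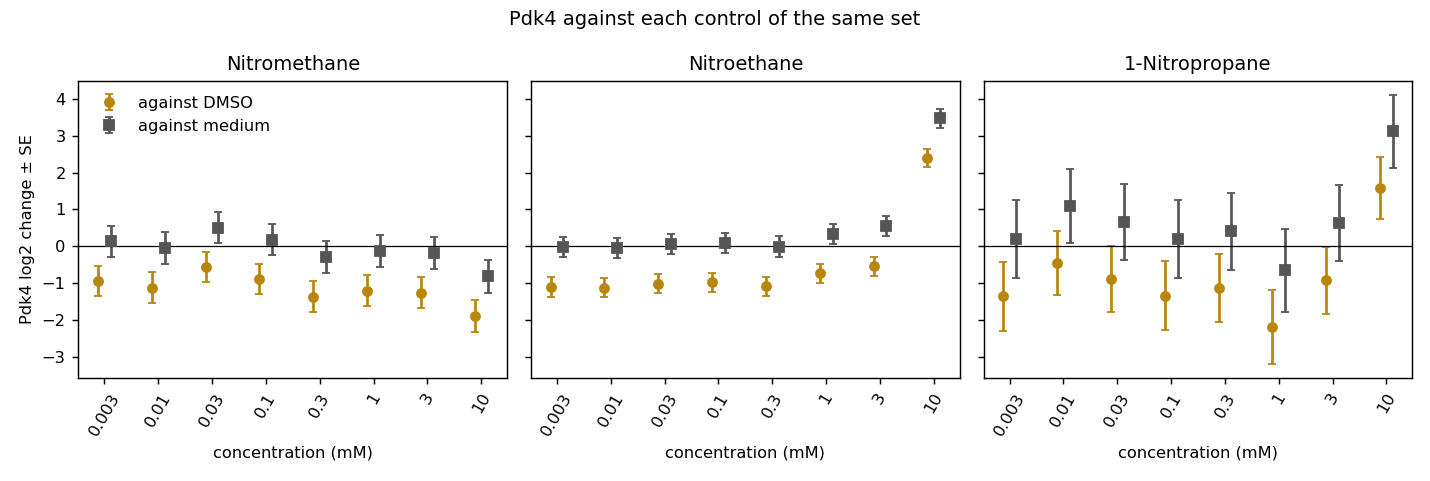
Log2 change of Pdk4 with its approximate standard error at each concentration of nitromethane, nitroethane and 1-nitropropane, against DMSO (circles) and against medium (squares) of the same set. NE is at 2.39 and 3.47 at 10 mM and at 0.54 or below at lower concentrations; the bars of 1NP are wider, with 1.59 ± 0.85 against DMSO at 10 mM.

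For 1NP the result at 10 mM hung on 1 library. The libraries labelled 1NP 10 mM had 0.810, 1.63 and 53.5 CPM, from 6, 12 and 457 counts. Exact Poisson 95% intervals, which cover counting error only, were 0.297 to 1.76, 0.841 to 2.84 and 48.8 to 58.7 CPM, so replicate 3 was apart by far more than counting error. With all 3 libraries the log2 change was 1.59 ± 0.85 against DMSO and 3.13 ± 0.99 against medium. With replicate 3 left out at that concentration it was −2.41 and −0.89, and with replicates 1 and 2 alone at every concentration −2.42 ± 0.46 and −0.90 ± 0.65. The direction of the 1NP change at 10 mM is not settled by these libraries.

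Replicate 3 of 1NP, plate column 3, was the highest at 7 of the 8 concentrations. At 3 mM 1NP gave 3.79, 0.951 and 5.31 CPM and at 1 mM 0.953, 0.982 and 2.27 CPM, replicate 3 being the highest in both. The exception was 0.003 mM, with 3.23, 2.40 and 2.20 CPM, where replicate 3 was the lowest. Over the 8 concentrations, replicates 1, 2 and 3 had median levels of 2.87, 2.36 and 4.11 CPM and median correlations with NE 10 mM of −0.251, −0.103 and 0.202. At 1 mM the change against DMSO was −2.20 ± 1.01, and −2.72 ± 0.46 with replicates 1 and 2 alone. Against DMSO 7 of 8 concentrations of 1NP were lower without overlap, all but 10 mM. The share of probes lower in this way was 17.7% at 0.003 mM, 10.0% at 0.01 mM, 12.3% at 0.03 mM, 16% at 0.1 mM, 8.26% at 0.3 mM, 8.41% at 1 mM and 12.2% at 3 mM. Against medium none of the 8 was without overlap. The medium of set 2 spanned 0.796 to 5.20 CPM, which limits what that control can show. Wells exchanged or carried over between plates were not tested for as a cause.

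**Figure D4:**
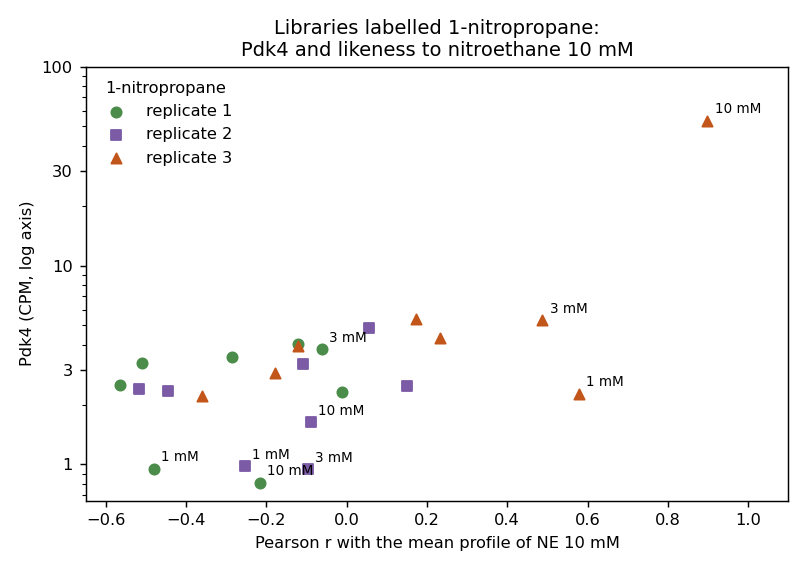
Pdk4 in CPM (log axis) against the Pearson correlation with the mean profile of NE at 10 mM, for the 24 libraries labelled 1-nitropropane, with replicates 1, 2 and 3 as circles, squares and triangles; libraries at 1, 3 and 10 mM carry their concentration. The library labelled 10 mM replicate 3 stands alone at r = 0.898 and 53.5 CPM, and the others lie at or below 5.36 CPM.

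Ordered by median within set 1, WY-14643 (mean 78.1 ± 24.0 CPM, SD, n = 3) was followed by NE 10 mM (38.1 ± 13.5), CITCO 20 µM (11.2 ± 2.14), CITCO 10 µM (9.84 ± 3.82) and DMSO (6.90 ± 0.511). NM 10 mM (1.94 ± 0.989) was last, and medium (3.38 ± 0.354) lay among the low concentrations. Only 3 neighbours in that order did not overlap: WY-14643 and NE 10 mM, NE 10 mM and CITCO 20 µM, and DMSO and rifampin 40 µM. In set 2 the order opened with WY-14643 (35.9 ± 2.17), DMSO (6.26 ± 0.872) and 1NP 0.01 mM (4.74 ± 0.676) and closed with medium (2.34 ± 2.48) and 1NP 1 mM (1.40 ± 0.752). There the neighbours without overlap were WY-14643 and DMSO, DMSO and 1NP 0.01 mM, and 1NP 0.03 mM and 1NP 0.1 mM. NE 10 mM was below WY-14643 of set 1 by 0.98 ± 0.28 on the log2 scale, again with no overlap. That was common here, since 26.6% of probes were lower with NE in this way.

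The other 3 kinases of the complex did not share this range. The highest group mean of Pdk4 was 40.3 times the lowest within set 1 and 25.6 times within set 2. For Pdk1 these ratios were 1.60 and 1.75, and for Pdk3 1.53 and 1.84. Pdk2 had a ratio of 1.86 in set 1, and its group means ran from 13.1 to 25.7 CPM in set 2. Pdk1, which is known for its response to low oxygen, had 82.0, 67.1 and 78.5 CPM with NE 10 mM, against 51.8, 48.7 and 45.4 CPM in medium and 65.4, 62.9 and 49.8 CPM with DMSO. It passed the test against medium (log2 change 0.65 ± 0.15, edgeR quasi-likelihood test, adjusted p = 0.00149) but not against DMSO (0.31 ± 0.16, adjusted p = 0.146). With WY-14643 in set 1, Pdk1 (−0.27), Pdk2 (−0.12) and Pdk3 (−0.04) did not pass against DMSO in that test (adjusted p = 0.246, 0.788 and 0.932). A p that misses the threshold does not show that a kinase was unchanged.

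The rest of the pyruvate dehydrogenase switch list, 12 probes for kinases, phosphatases, subunits and the mitochondrial pyruvate carrier, moved little and partly in opposite directions under the 2 treatments that carried high Pdk4. Called here means an adjusted p below 0.05 by the edgeR quasi-likelihood test over all probes. With NE 10 mM against DMSO 3 of 12 were called lower and none higher, where 15.6% of all 12326 probes were called lower and 13.3% higher. Mpc2, a subunit of the carrier that brings pyruvate into mitochondria, had 104, 85.6 and 111 CPM with NE 10 mM, against 160, 165 and 170 CPM with DMSO (−0.76 ± 0.20, adjusted p = 0.00447). The phosphatase Pdp2 (36.6 ± 3.43 CPM with NE and 57.7 ± 7.01 CPM with DMSO, SD, n = 3 each; −0.71 ± 0.13) and Dlat, the acetyltransferase core of the complex (55.0 ± 9.39 CPM with NE and 85.6 ± 12.6 CPM with DMSO; −0.68 ± 0.16), also fell. Against medium Pdp2 (−0.63) and Dlat (−0.73) were called lower too, and Mpc2 (−0.37, adjusted p = 0.165) was not.

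With WY-14643 the carrier moved the other way. Mpc2 rose in set 1 to 218, 249 and 218 CPM with WY-14643, against 160, 165 and 170 CPM with DMSO (0.35 ± 0.08, adjusted p = 0.00607 by the edgeR test), and was the only 1 of the 12 called, where 2.35% of all probes were called higher and 2.54% lower. The call was lost without WY-14643 replicate 2 (adjusted p = 0.0627). In set 2 Mpc2 rose again, by 0.76 ± 0.14 (278 ± 43.2 CPM with WY-14643 and 161 ± 9.32 CPM with DMSO, SD, n = 3 each; adjusted p = 0.00483), a call lost without DMSO replicate 6 or WY-14643 replicate 4. Here 0.667% of probes were called higher and 0.234% lower. Tested directly, Mpc2 was lower with NE 10 mM than with WY-14643 of set 1 by 1.13 on the log2 scale (SE 0.16, adjusted p = 0.000176), Pdp2 by 0.87 and Dlat by 0.70, with 17.4% of all probes called lower. NM 10 mM had Mpc2 at 111, 110 and 92.4 CPM, below DMSO by a similar amount (−0.75 ± 0.11, adjusted p = 5.95e-05; 3.26% of probes called lower), so low Mpc2 went with both high and low Pdk4. Without NM replicate 3 the Mpc2 change was −0.64.

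PPARα targets form the group that Pdk4 is usually placed in, and WY-14643 raised most of them. Of 29 probes tested, 24 were called higher and none lower against DMSO in set 1 (2.35% and 2.54% of all probes), and 20 higher and none lower in set 2 (0.667% and 0.234%), with median log2 changes of 0.80 and 0.86 against 0.01 and 0.00 over all probes. The largest rises in set 1 were in Ehhadh, a peroxisomal β-oxidation enzyme (50.7 ± 16.7 CPM with WY-14643 and 2.57 ± 0.614 CPM with DMSO; 4.17 ± 0.30, adjusted p = 1.68e-10), the fatty acid binding protein Fabp1 (4.15 ± 0.33), the acyl-CoA thioesterase Acot1 (4.07 ± 0.38) and Fabp3 (3.32 ± 0.30). The same 4 genes led in set 2, at 3.40 to 4.88. The change of Pdk4 was 3.37 in set 1, within the range of these 4, and 2.49 in set 2, below all 4.

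With NE 10 mM fewer of the same list rose. Against DMSO 12 of 29 were called higher and 4 lower (13.3% and 15.6% of all probes), with a median of 0.40 (0.03 over all probes). The number called lower was near the share over all probes. The 4 lower were 2 without DMSO replicate 3 or without NE replicate 2. Acot2, the mitochondrial thioesterase, rose to 69.7, 83.0 and 108 CPM with NE, against 21.0, 16.9 and 27.9 CPM with DMSO (1.93 ± 0.20, adjusted p = 3.75e-08 by the edgeR test) and Cyp4a2, a fatty acid hydroxylase, rose by 1.53 ± 0.21. Fabp1 went the opposite way, with 42.2, 27.8 and 33.3 CPM with NE, against 177, 169 and 254 CPM with DMSO (−2.57 ± 0.31, adjusted p = 3.85e-07). Ehhadh (0.42 ± 0.51, adjusted p = 0.566) and Acot1 (0.41 ± 0.44, adjusted p = 0.514), the leaders with WY-14643, did not pass with NE. Against medium 18 were called higher and 3 lower (16.6% and 17.4% of all probes), led by Cyp4a2 (3.34) and Cyp4a1 (3.31), while Fabp1 did not pass (−0.13).

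Set directly against WY-14643, NE 10 mM had 17 of the 29 PPARα probes lower and 2 higher (17.4% and 14.5% of all probes). Without WY-14643 replicate 2 the 17 became 11. Fabp1 was lower with NE by 6.74 on the log2 scale (SE 0.29; 34.4 ± 7.26 CPM with NE and 3853 ± 1022 CPM with WY-14643, SD, n = 3 each; adjusted p = 5.37e-08), Ehhadh by 3.74, Acot1 by 3.66 and Fabp3 by 3.53. Pdk4 was lower by 0.98. Acot2 did not pass (0.40 ± 0.17, adjusted p = 0.0849).

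**Figure D5:**
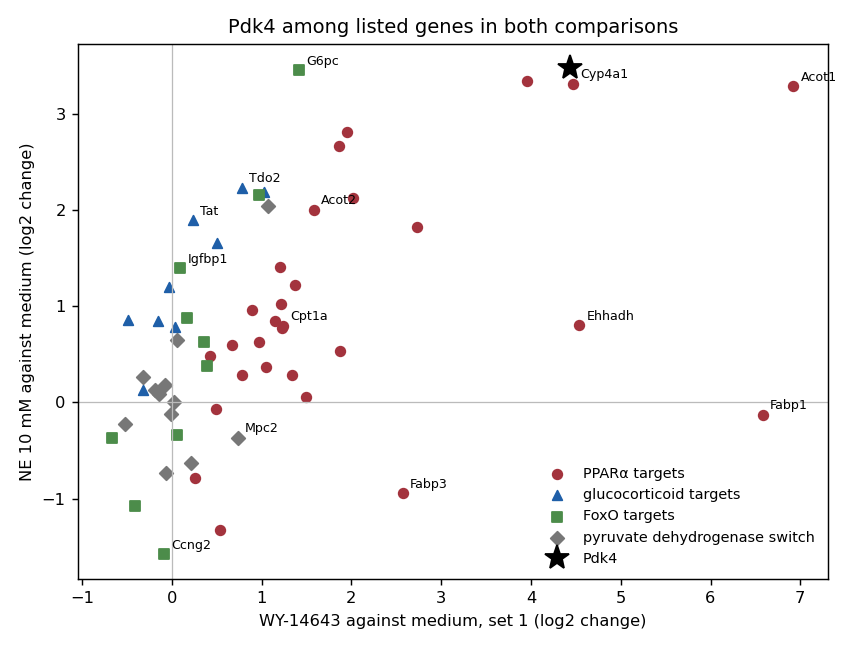
Log2 change with WY-14643 of set 1 against medium (horizontal) and with NE at 10 mM against medium (vertical) for Pdk4 (star, at 4.44 and 3.47) and the listed PPARα, glucocorticoid and FoxO targets and the genes of the pyruvate dehydrogenase switch. Both axes share the same 3 medium libraries; Fabp1 and Ehhadh are high with WY-14643 alone, and Tat, Tdo2 and Igfbp1 lie higher with NE than with WY-14643.

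NM at 10 mM had the PPARα list low against DMSO, as it did Pdk4. None of 29 was called higher and 17 were called lower (3.94% and 3.26% of all probes), with a median of −0.86. The 17 became 13 without NM replicate 3 or DMSO replicate 1. Fabp1 fell by 3.56 (SE 0.40), Cyp4a2 by 2.09 and Cyp4a1 by 1.92 on the log2 scale. Against medium none of the 29 was called in either direction by the edgeR test or by DESeq2. By edgeR 0.515% of all probes were called higher there and 0.147% lower. At an unadjusted p under 0.05 in the edgeR test, 9 of the 29 were lower and none higher. Of all 12231 probes, 1826 had such a p in either direction. NE at 10 mM was above NM at 10 mM in 15 of 29 and below it in 1 (5.47% and 6.23% of all probes), with Cyp4a2 higher by 3.63 ± 0.24 (adjusted p = 0.000321). The 15 became 8 without NE replicate 1 or 3, 9 without NM replicate 1 or 2, and 19 without NM replicate 3, the library that stood apart. DMSO was above medium in 18 of 29 in set 1 (3.88% called higher) and 21 of 29 in set 2 (12.4%), none being lower (3.19% and 11.6% of all probes called lower).

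At 3 mM NE, where Pdk4 was within 1.5 CPM of medium, the list was already higher than medium. It had 20 of 29 probes called higher and 1 lower (6.15% and 5.38% of all probes), with Cyp4a1 at 2.29, Fabp1 at 2.18 and Slc27a2, a fatty acid transporter, at 2.04. The 20 became 11 to 12 without NE replicate 2 or medium replicates 1 or 3. Against DMSO 1 of 29 was called higher and 2 lower (3.06% and 3.03%). Fabp1 was thus 164 ± 46.9 CPM at 3 mM and 34.4 ± 7.26 CPM at 10 mM, while Pdk4 was 4.66 ± 0.501 and 38.1 ± 13.5 CPM (SD, n = 3 each).

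Glucocorticoid targets set NE 10 mM apart from WY-14643. With NE 10 mM against DMSO 7 of 9 were called higher and none lower (13.3% and 15.6% of all probes), with a median log2 change of 0.83. Tat, the liver enzyme tyrosine aminotransferase, had 56.7, 59.8 and 63.6 CPM with NE, against 22.7, 20.0 and 15.2 CPM with DMSO (1.58 ± 0.21, adjusted p = 2.66e-06 by the edgeR test). Zbtb16 (1.19 ± 0.30), Klf9 (0.86 ± 0.28) and the tryptophan-degrading enzyme Tdo2 (0.83 ± 0.22) were also called, but each of these calls was lost without at least 1 library (NE replicate 2 for Zbtb16, NE replicate 3 or DMSO replicates 2 or 3 for Klf9, NE replicate 1 for Tdo2). Against medium 8 of 9 were higher (16.6% of all probes), led by Tdo2 (2.23) and Tat (1.89). With WY-14643 of set 1 none rose and 2 fell against DMSO (2.35% and 2.54% of all probes), Fkbp5 by 0.69 (SE 0.10, adjusted p = 3.4e-05) and Cebpd by 0.69, the second lost without DMSO replicates 1 or 2 or WY-14643 replicates 1 or 2. Tested directly, 9 of 9 were higher with NE 10 mM than with WY-14643 (14.5% of all probes), among them Tat (1.64 ± 0.16), Tdo2 (1.41), Cebpd (1.31) and Fkbp5 (1.20).

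NM at 10 mM had 3 of the 9 glucocorticoid targets lower than DMSO and none higher (3.26% and 3.94% of all probes), with Tdo2 at −1.76 ± 0.39 and Fkbp5 at −0.72 ± 0.15. NE 10 mM was above NM 10 mM in 7 of 9 (5.47% of all probes), led by Tdo2 (2.60 ± 0.39) and Tat (2.49 ± 0.52); the 7 became 4 without NE replicate 1 or 3, and Tat lost its call without any 1 NE library. At 3 mM NE 5 of 9 were higher than medium (6.15% of all probes), with Tdo2 at 2.38 ± 0.25 and Fkbp5 at 1.06 ± 0.13, although Pdk4 was 0.54 above medium there.

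FoxO targets that insulin holds down moved in both directions. With NE 10 mM 4 of 11 were called higher than DMSO and 3 lower (13.3% and 15.6% of all probes), with a median of 0.32. Pck1, the gluconeogenic enzyme, rose to 20.2, 25.4 and 22.1 CPM with NE, against 4.74, 5.18 and 4.79 CPM with DMSO (2.13 ± 0.34, adjusted p = 3.31e-05 by the edgeR test), and the insulin-suppressed binding protein Igfbp1 to 2465, 3000 and 2990 CPM with NE, against 1438, 1419 and 1593 CPM with DMSO (0.86 ± 0.12, adjusted p = 5.86e-06). Ccng2 (−1.34 ± 0.24) and Cited2 (−0.76 ± 0.14), which FoxO factors also raise, fell. G6pc, glucose-6-phosphatase, is named here after its values were seen: it had 3.71, 9.59 and 9.65 CPM with NE 10 mM, against 2.60, 0.461 and 0.892 CPM with DMSO. With WY-14643 of set 1 only Pck1 was called higher (0.96 ± 0.25, adjusted p = 0.0222, a call lost without any 1 DMSO library or WY-14643 replicate 2) and only Igfbp1 lower (−0.42 ± 0.09, adjusted p = 0.00566). Igfbp1 was higher with NE 10 mM than with WY-14643 by 1.28 ± 0.17 (adjusted p = 0.000131).

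Regulators of Pdk4, the receptors and coactivators known to act on the gene, were in part higher with NE 10 mM. Against DMSO 7 of 19 probes were called higher and none lower with NE (13.3% and 15.6% of all probes), with a median of 0.84. With WY-14643 none of 18 was called in either direction by edgeR or DESeq2. By edgeR only 2.35% of all probes were called higher than DMSO in set 1 and 2.54% lower. At an unadjusted p under 0.05 in the edgeR test, 3 of the 18 were higher and 1 lower. Of all 12102 probes, 2065 had such a p in either direction. Ppara, the receptor itself, had 51.5, 91.3 and 78.7 CPM with NE 10 mM, against 35.2, 33.6 and 31.0 CPM with DMSO (1.07 ± 0.18, adjusted p = 7.37e-05 by the edgeR test), while WY-14643 gave 36.4, 43.2 and 24.5 CPM. Its partner Rxra rose by 0.84 ± 0.11, Foxo1 by 0.95 ± 0.14 and the coactivator Lpin1 by 1.20 ± 0.18. Klf15, a fasting-induced factor, rose with NE by 1.66 ± 0.28 (14.5 ± 5.98 CPM with NE, SD, n = 3, against 4.38, 4.72 and 3.68 CPM with DMSO); for this comparison it is named after its values were seen. Directly against WY-14643 7 of 16 regulators were higher with NE and none lower (14.5% and 17.4% of all probes), among them Ppara (1.13 ± 0.21, adjusted p = 0.00123), Lpin1 (1.02) and Foxo1 (0.96). The 7 became 4 without WY-14643 replicate 1.

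NM 10 mM had Ppara at 16.0, 15.1 and 6.12 CPM, below DMSO (−1.50 ± 0.27, adjusted p = 0.00109 by the edgeR test), and Rxra at −0.61 ± 0.16, a call lost without DMSO replicates 1 or 2 or NM replicate 3. These were the 2 regulators of 18 called lower, and none was called higher (3.26% and 3.94% of all probes). Between NE and NM at 10 mM Ppara differed by 2.59 ± 0.39 (adjusted p = 0.00497) and Rxra by 1.46 ± 0.24. Ppara was also 0.91 higher with DMSO than in medium of set 1. In set 2 Ppara had 23.8, 18.5 and 21.1 CPM with DMSO, against 27.6, 25.7 and 10.9 CPM in medium, so the 2 controls overlapped there although those of Pdk4 did not.

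Around the switch, genes for the other fates of pyruvate and for glucose use changed in part with NE 10 mM. Of 9 listed for other fates, 4 were called higher than DMSO and 1 lower, against 13.3% and 15.6% of all probes: Pck1, the alanine aminotransferase Gpt (1.22 ± 0.25) and the lactate and pyruvate carrier Slc16a1 (0.68 ± 0.16) rose. The lactate dehydrogenase subunit Ldha fell (−0.60 ± 0.23, adjusted p = 0.0471 by the edgeR test), a call lost without NE replicates 1 or 2 or DMSO replicates 2 or 3. In glucose entry and glycolysis 5 of 22 were higher and 2 lower (13.3% and 15.6% of all probes), and the 2 lower became 1 or none when any 1 library was left out. Pfkfb1 (1.90 ± 0.24), which sets the balance of glycolysis and gluconeogenesis in liver and the gluconeogenic Fbp1 (1.44 ± 0.14) rose. NM 10 mM had both below DMSO, Fbp1 by 1.48 and Pfkfb1 by 1.36 on the log2 scale, the Pfkfb1 call being lost without DMSO replicate 1 or NM replicate 3. With WY-14643 Fbp1 also rose (0.62 ± 0.12, adjusted p = 0.00211), and so did malic enzyme Me1 (0.82 ± 0.14).

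In ketone body synthesis Acat1, which makes acetoacetyl-CoA, rose with WY-14643 in both sets, by 0.89 ± 0.15 and 0.96 ± 0.13.

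The libraries labelled 1NP 10 mM split like Pdk4 for some of these genes and not for others. Replicate 3 had Tat at 103 CPM, Ppara at 91.6 CPM and G6pc at 17.9 CPM, and replicates 1 and 2 had Tat at 13.6 and 12.9 CPM, Ppara at 10.1 and 11.8 CPM and G6pc at 0.270 and 0.271 CPM. Fabp1 (34.3 CPM in replicate 3, 28.2 and 25.4 CPM in replicates 1 and 2), Fabp3 (5.27 CPM, and 6.61 and 6.51 CPM) and Mpc2 (109 CPM, and 107 and 115 CPM) were alike in all 3. Pdp2 (33.3 CPM, and 69.4 and 63.1 CPM) and Dlat (63.4 CPM, and 98.5 and 92.6 CPM) were lowest in replicate 3. Of the 29 PPARα probes 1 was called lower than DMSO with all libraries and 18 without replicate 3. Over all probes, 1.14% were called lower with all libraries and 272 of 12252 without replicate 3. Against medium 9 were called higher with all libraries (6.81% of all probes), and none without 1NP replicate 3 or medium replicate 5. Over all probes, 65 of 12309 and 3 of 12303 were called higher without those libraries. The 9 became 3 without medium replicate 4 (569 of all 12319 probes) and 5 without medium replicate 6 (820 of 12350). They became 15 without 1NP replicate 1 or 2 (1287 of 12342 and 1047 of 12331).

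Over the 35 groups, the probes whose pattern was most like that of Pdk4 included Ech1, Cpt2, Acaa2 and Hadha, which are known as enzymes of fatty acid oxidation. Likeness was the Pearson correlation of group means of log2(CPM + 1), each set centred, over the 7618 probes with a mean of at least 10 CPM. It is a description, and the groups share controls, lot and plates. Among the 10 highest were Ech1 (0.936), Vnn1 (0.930), Gk (0.926), Abcd3 (0.919), Cyp4a2 (0.917), Cpt2 (0.909), Acaa2 (0.909), Hadha (0.906) and Chkb (0.906). Gk, glycerol kinase, averaged 179 ± 42.0 CPM with WY-14643, 179.7 ± 8.70 CPM with NE 10 mM, 47.1 ± 0.817 CPM with NM 10 mM, 74.7 ± 5.47 CPM with DMSO and 53.9 ± 7.13 CPM in medium of set 1 (SD, n = 3 each), so NE and WY-14643 differed by less than their spread.

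The order of likeness leaned on WY-14643. Without the WY-14643 groups 5 of the 10 remained among the first 10, which were led by Tmem56 (0.889), Abcd3 (0.887) and Chchd10 (0.878). Tmem56 averaged 171 ± 19.9 CPM with NE 10 mM and 73.2 ± 3.79 CPM with WY-14643, against 65.3 ± 3.05 CPM with DMSO, so it was high with NE and near DMSO with WY-14643. With Spearman's rho 3 of the 10 remained, and without 1NP 10 mM replicate 3 all 10.

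Markers of hepatocytes and of another cell type moved along with these groups. Summed hepatocyte markers were 6439 to 8680 CPM with NE 10 mM, 9578 to 10036 CPM with NM 10 mM, 9369 to 10734 CPM with WY-14643, 14716 to 15957 CPM with DMSO and 8718 to 10889 CPM in medium of set 1; 7 of 9 were called lower than DMSO with NE 10 mM (15.6% of all probes) and 7 of 9 with WY-14643 (2.54%). The cholangiocyte list, of which Krt7 had a median of 0, summed to 224 to 287 CPM with NE 10 mM, 829 to 1221 CPM with NM 10 mM, 661 to 741 CPM with WY-14643, 545 to 624 CPM with DMSO and 627 to 737 CPM in medium. Its member Sox9 fell with NE 10 mM (−1.57 ± 0.20, adjusted p = 1.62e-06 by the edgeR test) and rose with NM 10 mM (0.99 ± 0.21, adjusted p = 0.00346) against DMSO. In NE 10 mM replicate 2 the stellate, Kupffer and endothelial lists were at their highest, 18.1, 18.0 and 8.52 CPM, and the change of Pdk4 without that library is given above. The part of these markers in the level of Pdk4 was not tested.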

How the data were processed

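Per the labels, RNA of each well was read with TempO-Seq, and the authors deposited raw counts per probe, here the counts of 22253 probes; the genome build is not given in the sources used here. The submitters' processing notes name FastQC, Bowtie, R 3.5.3 and DESeq2 1.28.1, without saying for which step. From these counts CPM were computed on library totals. Each nitroalkane with 1 control (27 libraries), the reference compounds of set 1 (24) or set 2 (9) with both controls, and each pair of NE with NM or WY-14643 (6) had a fit by edgeR 4.0.16 in R 4.3.3: filterByExpr (minimum count 10, minimum total 15), TMM factors and robust quasi-likelihood dispersions. Tests of genes other than Pdk4 are edgeR's quasi-likelihood F test with Benjamini-Hochberg adjustment over all probes kept, called below 0.05. The SE is the log2 change divided by the root of F. Intervals are at 95%.

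The gene and the lists were chosen with earlier results of these data known, so their directions are not independent evidence. Named were called genes of the pyruvate dehydrogenase switch and, of every other list, up to 4 with the largest absolute log2 change among those called, with a mean of at least 10 CPM and no overlap. Of 20946 symbols 15980 are in the RefSeq table of rat genes. Among the listed symbols absent from the count table were Pdha1, Pdhb, Pkm, G6pc1, Angptl4, Cyp4a3, Slc25a20, Cd36, Tsc22d3, Per1, Nr3c1, Ahsg and Lrat. No libraries of a group differed by as little as sampling noise (smallest chi-square per degree of freedom 2.82). On simulated counts, changes of log2 1 and 2 were recovered in 76% and 100% of changed probes for WY-14643 of set 1 and in 74% and 92% for NE 10 mM, both against DMSO. In each simulation 100 probes were changed at each size, none of low count, and no library stood apart. These shares therefore do not give the recovery in the real comparisons. Alternatives were DESeq2 1.42.0, its size factors, library totals, all probes, other sets of libraries in a fit, a replicate block, and leaving out each library. Some results are not reported here.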

Additional observations from a re-analysis of the deposited data

How the results depend on the processing

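The log2 change of Pdk4 moved by less than the spread between libraries (the SDs of both groups combined) in 436 of 438 fits that left out 1 library and in 498 of 500 others, and the rest were all 1NP 10 mM. Medium of set 2 had a wide SD, 1.47 on the log2 scale, so even sizeable shifts against it lay within this spread. Without medium replicate 4 the change of 1NP 1 mM against medium went from −0.66 to 0.65. Without medium replicate 5 that of 1NP 0.003 mM went from 0.18 to −0.27. With 1NP replicates 1 and 2 alone, a choice made after the data were seen, the 1NP 10 mM change was −2.42 against DMSO and −0.90 against medium. With 1 library left out it ran from −2.41 (1NP replicate 3) to 2.16 (1NP replicate 1) against DMSO and from −0.89 (1NP replicate 3) to 4.45 (medium replicate 4) against medium. Replicate numbers shared between groups of a set did not pair the libraries: every pair correlated above 0.1 in 5 of 57 comparisons, over a range of −0.738 to 0.622. With a replicate block the NE 10 mM change was 2.38 against DMSO and 3.46 against medium, that of WY-14643 in set 1 was 3.38 against DMSO, and none of the 57 moved by more than that spread. No paired analysis was possible for 1NP because its libraries share no number with the set 2 controls. Of the probes called over the whole table, edgeR and DESeq2 gave 81 and 246 for NM 10 mM against medium, 263 and 410 for 1NP 10 mM against DMSO, 1237 and 1862 for 1NP 10 mM against medium, 104 and 163 for WY-14643 of set 2 against DMSO, 102 and 179 for CITCO 20 µM against DMSO, and 1352 and 2040 for NE 10 mM against NM 10 mM. Without 1NP 10 mM replicate 3, the 826 probes called higher and 411 called lower than medium became 65 and 17, and the 125 higher and 138 lower than DMSO became 314 and 272. Calls of single named genes were lost in 438 of 2454 leave-one-out fits and 27 of 1227 others, and none reversed. With a median of 34 counts a library, and as few as 6, differences of a few CPM in Pdk4 are near what this depth can show.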
